A study of Mus musculus with 22 samples.

Results

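The genes described here are 36 genes of the unfolded protein response and the heat shock response, taken by symbol from a table of 56748 genes counted in whole mouse brain. They comprise 15 chaperones and folding enzymes of the endoplasmic reticulum (ER), 4 genes of ER-associated degradation, 7 sensors and transcription factors of the unfolded protein response, 8 cytosolic heat shock proteins and the 2 subunits of the mitochondrial chaperonin. The 36 symbols stood on 37 rows, because Ddit3 has a second identifier, which held 0 counts in every library and shares 105 exonic bases with the first. All 36 members passed the filter on low counts and were among the 20026 genes tested.

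When unfolded proteins gather in the ER, the membrane sensors IRE1, PERK and ATF6 switch on transcription factors, chiefly XBP1, ATF4 and cleaved ATF6, that raise the production of ER chaperones, folding enzymes and degradation machinery. The cytosol has a separate programme, in which heat shock factors raise chaperones of the HSP70, HSP90, HSP40 and small heat shock protein families. In the brain both programmes are known from work on protein misfolding, on inflammation and on secretory demand, and the constitutive HSP70 and HSP90 proteins are among the most abundant proteins of neurons.

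The mice were male C57BL/6J animals in a model of Gulf War illness, exposed when young and kept to 17.5 months of age before the later treatments. Exposure (GW) meant 0.7 mg/kg pyridostigmine bromide, an acetylcholinesterase inhibitor, with 200 mg/kg permethrin, a pyrethroid insecticide, given into the peritoneum daily for 10 days from 10 weeks of age. Unexposed mice (Ctrl) had the vehicle of these chemicals. In old age they had 30 mg/kg cannabidiol (CBD) into the peritoneum daily for 28 days and then every other day for 2 weeks, or its vehicle (Veh). Lipopolysaccharide (LPS), the bacterial cell-wall component that provokes systemic inflammation, was injected at 0.33 mg/kg, with PBS as its control, and brains were removed 24 h later. The groups were GWCBD30LPS (exposed, CBD, LPS; 4 mice), GWCBD30 (exposed, CBD, PBS; 4 mice), GWVehLPS (exposed, vehicle, LPS; 4 mice), GWVeh (exposed, vehicle, PBS; 4 mice), CtrlVehLPS (unexposed, vehicle, LPS; 3 mice) and CtrlVeh (unexposed, vehicle, PBS; 3 mice). CBD was given to exposed mice only in these groups, and all the mice were old, so the groups hold neither CBD in unexposed mice nor young mice.

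The 22 libraries held 17.15 to 31.15 M counts (median 21.56 M), and neuronal markers summed to 5426 to 6384 CPM (counts scaled to the library total) in every library. In bulk tissue, fewer cells of a type and less RNA per cell cannot be told apart. Some libraries stood apart in such markers. CtrlVehLPS replicate 1 held 423.1 CPM of 28 pancreatic acinar genes, against 5.43 to 8.44 CPM in the other libraries, and 1062 CPM of 16 cerebellar neuron genes, against at least 2486 CPM elsewhere. Olfactory bulb neuron markers (13 genes) summed to 318.6 to 434.7 CPM in CtrlVehLPS and 223.8 to 240.9 CPM in CtrlVeh. They also reached 330.2 and 330 CPM in GWVehLPS replicates 2 and 3, against 246.4 and 255.1 CPM in replicates 1 and 4. GWCBD30LPS replicate 4 had 314.5 CPM, against 265 to 273 CPM in the others of its group. Bulb content thus varied within the exposed LPS groups too. GWVeh replicate 1 held 832.9 CPM of 6 red blood cell markers, against 163.1 to 414.6 CPM in the other libraries. Values without CtrlVehLPS replicate 1 or GWVeh replicate 1 are given beside the members called or, with those of the other members, in paragraphs of their own. The labels say nothing of shared litters or batches. Each p-value sets a difference of group means against a spread between mice estimated from all groups together. Counts at an unadjusted p under 0.05 are given below without the share of all genes at that p. They are therefore description, and not a result about the members. The unit of the levels below is CPM on library sizes scaled by the trimmed mean of M values (TMM), a change is a log2 fold change between group means with its standard error (SE) after the ± sign, and a gene is called at an adjusted p under 0.05 over all 20026 genes, by edgeR's quasi-likelihood test with Benjamini-Hochberg adjustment.

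Per kilobase of exon, cytosolic chaperones took the top 3 places among the members. Hsp90ab1, the constitutive HSP90, had a median of 427.7 CPM per kb over the 22 libraries, Hspa8, the constitutive HSP70, had 344.9 CPM per kb, and Hsp90aa1, the inducible HSP90, had 220.2 CPM per kb. The ER followed with Calr (calreticulin, a calcium-binding lectin chaperone) at 90.55 CPM per kb, Canx (calnexin, its membrane-bound relative) at 61.15 CPM per kb and Hspa5 (BiP, the ER HSP70 and main binder of unfolded proteins) at 51.58 CPM per kb. At the other end stood Hspa1b (2.64 CPM per kb), Ern1 (2.41 CPM per kb), Hspa1a (2.35 CPM per kb) and Trib3, a pseudokinase induced downstream of ATF4, at 0.306 CPM per kb. The members varied little over the 22 libraries: the highest library was 1.18 times the lowest for Eif2ak3, 1.22 times for Hspa8 and 2.67 times for Sdf2l1, with 4.80 times for Trib3, whose levels of 0.277 to 1.33 CPM rest on 326 counts in all.

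RefSeq promoter windows (GRCm38.p6, 250 bases before to 50 after the annotated start) were at hand for 30 of the 36 members, in 33 windows. The stretches below are shown because part of the ER members hold a known sequence element there. The members were chosen as genes of this response, so the counts of the element describe them and are not independent support. The ER stress response element (ERSE, letters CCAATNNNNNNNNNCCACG, searched on both strands) stood in 0.137% of 27025 genes with a window, and in 8 of the 30 members. Of the ER folding genes, 7 of 13 held it (Hspa5, Hsp90b1, Calr, Canx, Creld2, Dnajc3 and Pdia6), and of the ER-associated degradation genes 1 of 4, Syvn1. None of 6 sensors and factors, 5 cytosolic heat shock genes and 2 mitochondrial genes with a window held it. Each stretch is written 5′ to 3′ on the strand of its gene, with the ERSE in capitals; it reads CGTGG at its left end where the element lies on the other strand.
Hspa5: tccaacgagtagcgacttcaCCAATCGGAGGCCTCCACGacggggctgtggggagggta
Hsp90b1: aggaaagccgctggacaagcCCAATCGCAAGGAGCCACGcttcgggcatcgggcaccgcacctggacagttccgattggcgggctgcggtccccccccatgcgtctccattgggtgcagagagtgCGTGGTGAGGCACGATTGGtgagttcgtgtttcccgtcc
Calr: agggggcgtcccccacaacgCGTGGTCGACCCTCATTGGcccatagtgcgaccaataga
Canx: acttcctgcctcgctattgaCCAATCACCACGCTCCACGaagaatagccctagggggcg
Creld2: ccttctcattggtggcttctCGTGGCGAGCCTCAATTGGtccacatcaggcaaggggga
Dnajc3: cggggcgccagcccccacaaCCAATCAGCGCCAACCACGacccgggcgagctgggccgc
Pdia6: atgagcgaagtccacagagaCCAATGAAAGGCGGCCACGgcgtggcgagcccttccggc
Syvn1: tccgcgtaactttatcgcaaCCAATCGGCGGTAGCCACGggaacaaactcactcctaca

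These stretches lie at chr2:34772005-34772063 (plus strand) for Hspa5, chr10:86705513-86705676 (minus strand) for Hsp90b1, chr8:84847055-84847113 (minus) for Calr, chr11:50325780-50325838 (minus) for Canx, chr15:88819500-88819558 (plus) for Creld2, chr14:118937807-118937865 (plus) for Dnajc3, chr12:17266471-17266529 (plus) for Pdia6 and chr19:6046512-6046570 (plus) for Syvn1. The Hsp90b1 window held the element at 2 places, beginning 212 and 107 bases before the start, and both are in the stretch shown. The capitals lie outside every exon and intron of GENCODE M21, except those of Hspa5, which fall in an annotated exon of Hspa5. With at most 1 of the 10 fixed bases changed, the element stood in 13 of 30 members, against 1.72% of the 27025 genes: it added Pdia3, Pdia4, Herpud1, Sel1l and Ddit3.

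Sdf2l1 and Pdia4, the ER folding genes called in the largest number of comparisons below, had no full ERSE in their windows. Their 150 bases before the start are shown with the CCAAT box (CCAAT on either strand, found in 41.1% of genes) in capitals, at chr16:17132384-17132533 (minus strand) for Sdf2l1 and chr6:47813513-47813662 (minus strand) for Pdia4.
Sdf2l1: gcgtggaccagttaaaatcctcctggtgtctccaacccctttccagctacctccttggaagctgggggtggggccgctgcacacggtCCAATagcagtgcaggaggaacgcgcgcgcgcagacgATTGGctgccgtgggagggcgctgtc
Pdia4: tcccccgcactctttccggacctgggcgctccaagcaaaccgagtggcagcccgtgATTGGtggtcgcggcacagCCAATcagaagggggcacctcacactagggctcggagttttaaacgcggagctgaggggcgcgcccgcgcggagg

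A heat shock element (letters GAANNTTCNNGAA, both strands) stood in 0.662% of genes and in 3 members. Among the cytosolic genes 1 of 5 with a window held it, Hsph1, where it lay after the start. Only exact matches to this element were searched, unlike the ERSE, so changed copies of it in the other genes would be missed. Both mitochondrial genes held it, Hspd1 and Hspe1, which share 1 promoter in opposite directions. The shared element is shown on the Hspd1 strand, at chr1:55088039-55088096 (minus strand), inside an annotated exon of Hspd1 in GENCODE M21, with 2 overlapping matches in capitals.
Hspd1: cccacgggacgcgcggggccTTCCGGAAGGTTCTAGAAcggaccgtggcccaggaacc

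No member window held the 8-base unfolded protein response element TGACGTGG, which 0.714% of genes did. Windows of Hspa8, Hsp90aa1, Hsp90ab1, Hyou1, Manf and Atf6 were not used here.

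**Figure D1:**
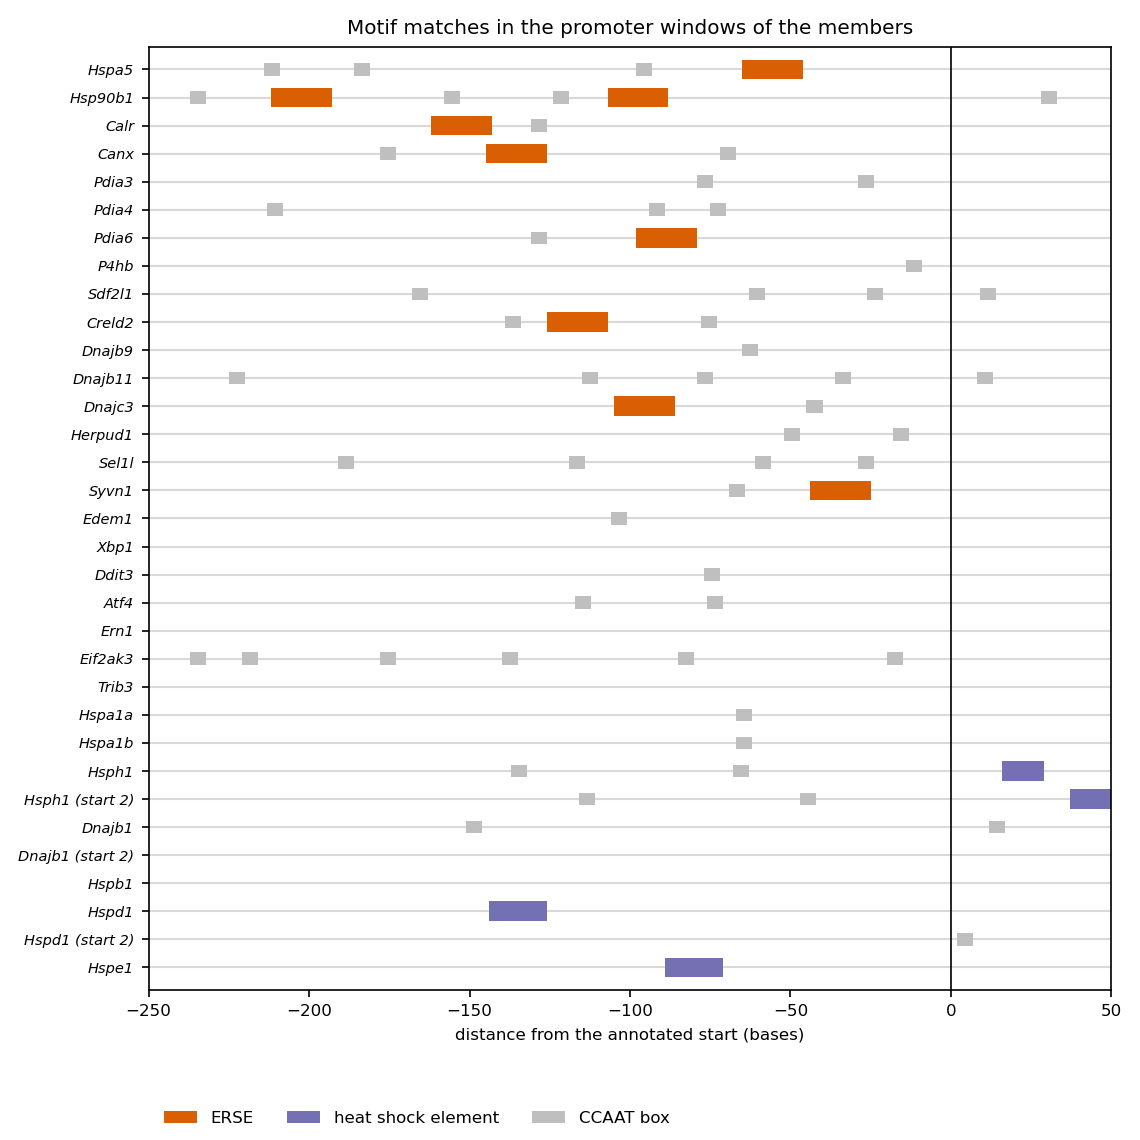
Matches to the ER stress response element (orange), the heat shock element (purple) and the CCAAT box (grey) in the promoter windows of 30 members, against the distance in bases from the annotated start (black line). Orange boxes stand in 7 of 13 ER folding genes and in Syvn1, and purple boxes in Hsph1, Hspd1 and Hspe1.

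LPS raised ER folding genes in unexposed mice and in exposed mice on vehicle, and no member was called in exposed mice on CBD. In unexposed mice 6 of 36 members rose (Hspa5, Calr, Pdia4, Sdf2l1, Hyou1 and Xbp1), where 0.414% of all genes tested were called higher and 0.0799% lower. In exposed vehicle mice 4 of 36 rose (Pdia4, Sdf2l1, Manf and Dnajc3), where 0.829% of all genes were called higher and 0.11% lower. No member was called lower in either arm. With only the libraries compared in the fit, 1 call was left in unexposed mice (Calr, adjusted p = 0.0180, the others 0.0556 to 0.163) and 1 in exposed vehicle mice (Sdf2l1, adjusted p = 0.0402, the others 0.0759 to 0.112). In exposed CBD mice edgeR called 0 of 36, with 1 at an unadjusted p under 0.05 and 0 by DESeq2, in a comparison that called 0.00499% of all genes. Pdia4 and Sdf2l1 were the 2 members called in both vehicle arms. The 3 comparisons use separate libraries.

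Sdf2l1, a soluble ER protein that works with BiP and its co-chaperones, had the largest change of all members in both vehicle arms. In CtrlVehLPS its levels were 8.47, 11.6 and 13.1 CPM, against 7.86, 4.98 and 6.56 CPM in CtrlVeh. Exposed vehicle mice had 11.8, 9.25, 9.84 and 13.3 CPM with LPS and 7.53, 7.08, 7.96 and 6.997 CPM with PBS. Exposed CBD mice had 7.15, 6.99, 7.83 and 5.67 CPM with LPS and 6.28, 7.30, 7.57 and 7.24 CPM with PBS. Every LPS library of the vehicle arms lay above every PBS library of its arm, and in the CBD arm the groups overlapped, with the lowest library of all 8 in the LPS group. The log2 fold change was 0.77 ± 0.17, adjusted p = 0.025 in unexposed mice, 0.57 ± 0.14, adjusted p = 0.0434 in exposed vehicle mice and -0.03 ± 0.15, adjusted p = 0.975 in exposed CBD mice, where the 95% interval ran from -0.35 to 0.29. CtrlVehLPS replicate 1, the library with pancreatic RNA, had the lowest Sdf2l1 of its group, and without it the unexposed value was 0.94 (adjusted p = 0.00652).

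Pdia4, a disulfide isomerase of the ER, had 33.9, 37.4 and 36.9 CPM in CtrlVehLPS and 27.3, 26.6 and 28.4 CPM in CtrlVeh. Its levels in exposed vehicle mice were 37.9, 39.5, 35.9 and 37.3 CPM with LPS and 31.7, 31.8, 32.6 and 26.98 CPM with PBS. With CBD they were 28.97, 30.98, 30.4 and 29.7 CPM under LPS and 28.3, 29.2, 27.4 and 31.5 CPM under PBS. Groups were again apart in both vehicle arms and overlapped in the CBD arm. The log2 fold change was 0.39 ± 0.08, adjusted p = 0.0183 in unexposed mice (0.44, adjusted p = 0.0237, without CtrlVehLPS replicate 1), 0.29 ± 0.07, adjusted p = 0.0319 in exposed vehicle mice and 0.05 ± 0.07, adjusted p = 0.897 in exposed CBD mice.

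Hspa5 had 248, 277 and 246 CPM in CtrlVehLPS, against 219, 201 and 184 CPM in CtrlVeh. The exposed vehicle arm had 287, 252, 218 and 270.5 CPM with LPS and 211, 229, 247 and 219.8 CPM with PBS. In the CBD arm the values were 213, 201, 216 and 194 CPM with LPS and 192, 208, 204 and 219 CPM with PBS. Only the unexposed groups did not overlap, and GWVehLPS replicate 3 stood below 3 of the 4 GWVeh libraries. Hspa5 rose by 0.35 ± 0.08, adjusted p = 0.0353 in unexposed mice (0.38, adjusted p = 0.0468, without CtrlVehLPS replicate 1), while the difference was 0.18 ± 0.07, adjusted p = 0.321 in exposed vehicle mice and 0.00 ± 0.07, adjusted p = 0.994 in exposed CBD mice, with a 95% interval of -0.15 to 0.15.

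Calr had 306, 312 and 302 CPM in CtrlVehLPS and 243, 226 and 234 CPM in CtrlVeh. Exposed mice on vehicle held 309.8, 295, 272 and 336 CPM of it with LPS and 298, 288, 285 and 256 CPM with PBS. Exposed mice on CBD held 260.2, 241, 257 and 252 CPM with LPS and 243, 256, 261 and 245 CPM with PBS. The 3 CtrlVeh libraries were lower than any GWVeh library, while the groups of both exposed arms overlapped. The change was 0.39 ± 0.07, adjusted p = 0.00299 in unexposed mice (0.39, adjusted p = 0.00870, without CtrlVehLPS replicate 1), 0.11 ± 0.06, adjusted p = 0.562 in exposed vehicle mice and 0.01 ± 0.06, adjusted p = 0.985 in exposed CBD mice.

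Hyou1, a large ER chaperone of the HSP110 family that exchanges the nucleotide of BiP, had 113, 123 and 129 CPM in CtrlVehLPS and 93.3, 99.6 and 98.4 CPM in CtrlVeh, with no overlap, a rise of 0.32 ± 0.07, adjusted p = 0.0228 (0.38, adjusted p = 0.0165, without CtrlVehLPS replicate 1). Its values in the exposed arms were 0.18 (adjusted p = 0.182) on vehicle and 0.09 (adjusted p = 0.717) on CBD. Manf, a secreted ER-resident neurotrophic factor, had 43.6, 43.7, 39.5 and 45.2 CPM in GWVehLPS and 35.5, 36.5, 36.6 and 31.4 CPM in GWVeh, with no overlap and a rise of 0.30 ± 0.07, adjusted p = 0.0385. Its exons share 166 bases with 4930524O07Rik and 146 bases with Dcaf1 on the other strand, and 14 bases with Rbm15b on the same strand. The strand setting of the counting is not given in the sources used here. In unexposed mice the Manf groups were also apart, at 40.1 to 41.9 CPM in CtrlVehLPS and 30.7 to 34.8 CPM in CtrlVeh, yet the adjusted p was 0.0762 for a difference of 0.33 ± 0.09. Dnajc3, an ER co-chaperone of BiP known as an inhibitor of PERK, had 85.7, 73.4, 76.7 and 76.7 CPM in GWVehLPS and 64.1, 65.03, 66.7 and 69.01 CPM in GWVeh. Each GWVehLPS library lay above each GWVeh library, a rise of 0.24 ± 0.06, adjusted p = 0.0463, and in unexposed mice the difference was 0.14 (adjusted p = 0.44).

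**Figure D2:**
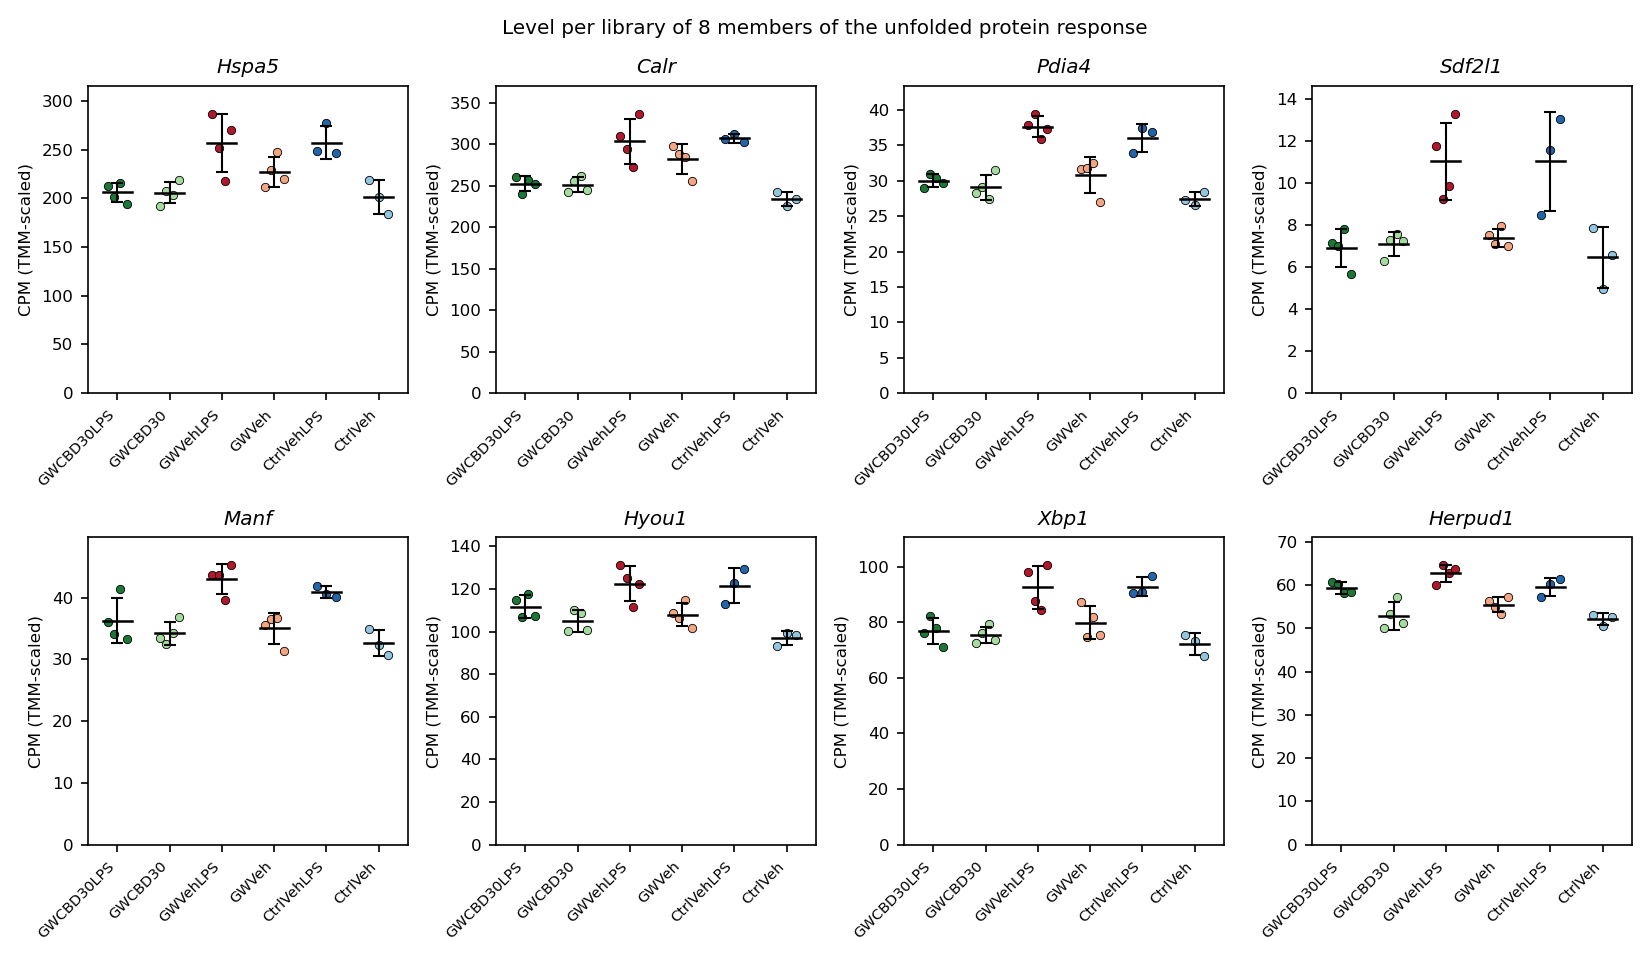
Levels of 8 members in CPM (TMM-scaled, linear axes from 0) in each library, by group; points are libraries, the long bar is the group mean and the whiskers are 1 SD (n = 4, 4, 4, 4, 3 and 3 from left to right). Sdf2l1 stands at 9.25 to 13.3 CPM in GWVehLPS and at 5.67 to 7.83 CPM in GWCBD30LPS.

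As a class, the 15 ER folding genes had a positive log2 fold change in 15 of 15 with LPS in unexposed mice (median 0.25, 11 at an unadjusted p under 0.05), in 13 of 15 in exposed vehicle mice (median 0.18, 10 unadjusted) and in 10 of 15 in exposed CBD mice (median 0.0069, range -0.11 to 0.09, 0 unadjusted). The median over all genes tested was -0.0041, -0.0047 and -0.0046 in these comparisons. In unexposed mice 17 of the 36 members had every LPS library above every PBS library, 12 of them ER folding genes, where 9.2% of all genes did. In exposed vehicle mice 10 members did, 6 of them ER folding genes, against 3.5% of all genes, and none was below (2.37% of all genes). In exposed CBD mice Herpud1 and Hsp90ab1 did, 2 members, against 3.39% of all genes, and none was below (2.85% of all genes). Members with a fold change above 0 in all 3 arms numbered 17 of 36, against 17.4% of all genes.

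Within the class the response was uneven. Creld2, an ER protein with disulfide isomerase activity, had 0.25 (adjusted p = 0.484) in unexposed and 0.31 (adjusted p = 0.301) in exposed vehicle mice, Hsp90b1, the ER HSP90, had 0.16 (adjusted p = 0.333) and 0.19 (adjusted p = 0.134), and Pdia6, a disulfide isomerase, had 0.28 (adjusted p = 0.121) and 0.14 (adjusted p = 0.49). Dnajb9, an ER co-chaperone of BiP, had 0.07 (adjusted p = 0.807) and -0.05 (adjusted p = 0.905), the smallest value of the class in unexposed and in exposed vehicle mice. Canx, Pdia3, P4hb and Dnajb11 had 0.14, 0.18, 0.12 and 0.22 in unexposed mice and 0.13, 0.13, 0.12 and -0.03 in exposed vehicle mice, with no call. Set beside the promoter windows, Hspa5, Calr and Dnajc3 were called in a vehicle arm and held the full ERSE, Pdia4, Sdf2l1 and Xbp1 were called without a full ERSE in the window, and Canx, Creld2, Hsp90b1 and Pdia6 held it and were called in neither arm.

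Genes of ER-associated degradation, which draws misfolded proteins back to the cytosol for the proteasome, were not called in any single arm (0 of 4 by edgeR, with 1, 2 and 1 at an unadjusted p under 0.05 in unexposed, exposed vehicle and exposed CBD mice). Herpud1, a stress-induced scaffold of the degradation complex, was the one with similar values in each arm: 0.19 ± 0.07 in unexposed, 0.18 ± 0.06 in exposed vehicle and 0.17 ± 0.06 in exposed CBD mice. Its levels with CBD were 60.8, 60.2, 58.1 and 58.4 CPM in GWCBD30LPS and 50.01, 53.3, 57.2 and 51.2 CPM in GWCBD30, with no overlap, and the adjusted p there was 0.419. The ubiquitin ligase gene Syvn1 had 0.08, 0.16 and 0.03, its partner Sel1l had 0.10, 0.05 and -0.01, and Edem1, which selects misfolded glycoproteins, had -0.07, 0.06 and 0.01 in the same order of arms.

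Of the 7 sensors and factors, Xbp1 alone was called in a single arm. Xbp1, whose mRNA is spliced by IRE1, had 90.4, 90.98 and 96.6 CPM in CtrlVehLPS and 75.4, 73.3 and 67.8 CPM in CtrlVeh. Exposed vehicle mice had 97.9, 87.5, 84.5 and 100.4 CPM with LPS and 87.2, 74.5, 81.97 and 75.4 CPM with PBS. In the CBD arm its range was 70.97 to 82.05 CPM with LPS and 72.6 to 79.2 CPM with PBS. The unexposed groups were apart and the others overlapped, with 0.36 ± 0.08, adjusted p = 0.0176 in unexposed mice (0.38, adjusted p = 0.0285, without CtrlVehLPS replicate 1), 0.21 ± 0.07, adjusted p = 0.126 in exposed vehicle mice and 0.03 ± 0.07, adjusted p = 0.941 in exposed CBD mice. Counts per gene do not tell the spliced from the unspliced Xbp1 mRNA.

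The PERK branch and the sensor genes showed no call. Atf4, the factor translated when PERK slows general translation, had 92.02, 89.8 and 93.8 CPM in CtrlVehLPS and 102, 98.8 and 98.3 CPM in CtrlVeh, the single member whose LPS libraries all lay below the PBS libraries in that arm (8.13% of all genes did), at -0.12 (adjusted p = 0.599). Ddit3 (CHOP, a death-promoting factor downstream of ATF4) had 0.09 (adjusted p = 0.781) and 0.15 (adjusted p = 0.589), and Trib3 0.30 (adjusted p = 0.855) and -0.01 (adjusted p = 0.997), in unexposed and exposed vehicle mice. The sensor genes Atf6, Ern1 (IRE1) and Eif2ak3 (PERK) had -0.03, -0.10 and -0.11 in unexposed mice, 0.08, 0.23 and -0.02 in exposed vehicle mice and 0.08, -0.04 and -0.04 in exposed CBD mice. The median of the 7 was -0.03, 0.08 and 0.03 in these arms. Sensor activity rests on protein state and splicing, which gene counts do not measure.

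Cytosolic heat shock genes had no call in any single arm: edgeR called 0 of 8, with 5, 2 and 0 at an unadjusted p under 0.05 in unexposed, exposed vehicle and exposed CBD mice, and their medians were 0.17, 0.08 and 0.06. All 8 were above 0 in unexposed mice and 7 of 8 in exposed vehicle mice. Hspb1, a small heat shock protein that stabilises actin and unfolded proteins, had 5.18, 6.30 and 8.96 CPM in CtrlVehLPS and 5.24, 4.75 and 3.77 CPM in CtrlVeh. Exposed vehicle mice had 7.90, 7.09, 6.85 and 8.32 CPM of Hspb1 with LPS and 6.79, 5.02, 6.34 and 3.41 CPM with PBS, and CBD mice had 4.94 to 5.67 CPM with LPS and 4.25 to 5.73 CPM with PBS. The exposed vehicle groups did not overlap, though GWVeh replicate 1 came close to the lowest GWVehLPS library, and the unexposed groups overlapped by 1 library of each, the LPS library being CtrlVehLPS replicate 1. Its log2 fold changes of 0.57 ± 0.21, adjusted p = 0.241, 0.48 ± 0.18, adjusted p = 0.248 and 0.09 ± 0.18, adjusted p = 0.932 were the largest of its class in the vehicle arms.

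The abundant cytosolic chaperones moved little. Hspa8 had 0.09 ± 0.06 in unexposed, 0.04 ± 0.06 in exposed vehicle and -0.01 ± 0.06 in exposed CBD mice, Hsp90aa1 had 0.05 ± 0.08, 0.10 ± 0.07 and 0.09 ± 0.07, and Hsp90ab1 had 0.17 ± 0.06, 0.03 ± 0.06 and 0.10 ± 0.06, all with adjusted p above the threshold. The HSP110 gene Hsph1 had 0.16 (adjusted p = 0.378), 0.06 (adjusted p = 0.816) and -0.01 (adjusted p = 0.973) in the same order, and Dnajb1, the stress-inducible HSP40, had 0.17 (adjusted p = 0.35), 0.18 (adjusted p = 0.257) and 0.04 (adjusted p = 0.899). The stress-inducible HSP70 genes Hspa1a and Hspa1b are near-identical copies whose reads may be split between them, so their sum is safer: 15.2 to 18.5 CPM in CtrlVehLPS and 11.5 to 15.8 CPM in CtrlVeh, 10.8 to 16.3 CPM in GWVehLPS and 11.2 to 15.8 CPM in GWVeh, and 10.5 to 15.6 CPM in GWCBD30LPS and 13.5 to 13.9 CPM in GWCBD30. The groups of the sum overlapped in each arm. In unexposed mice the overlap came from CtrlVehLPS replicate 1 alone, the library with pancreatic RNA, which was the lowest of its group at 15.2 CPM. The mitochondrial chaperonin genes Hspd1 and Hspe1, which overlap each other by 112 exonic bases, ranged from -0.02 to 0.07 over the 3 arms.

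**Figure D3:**
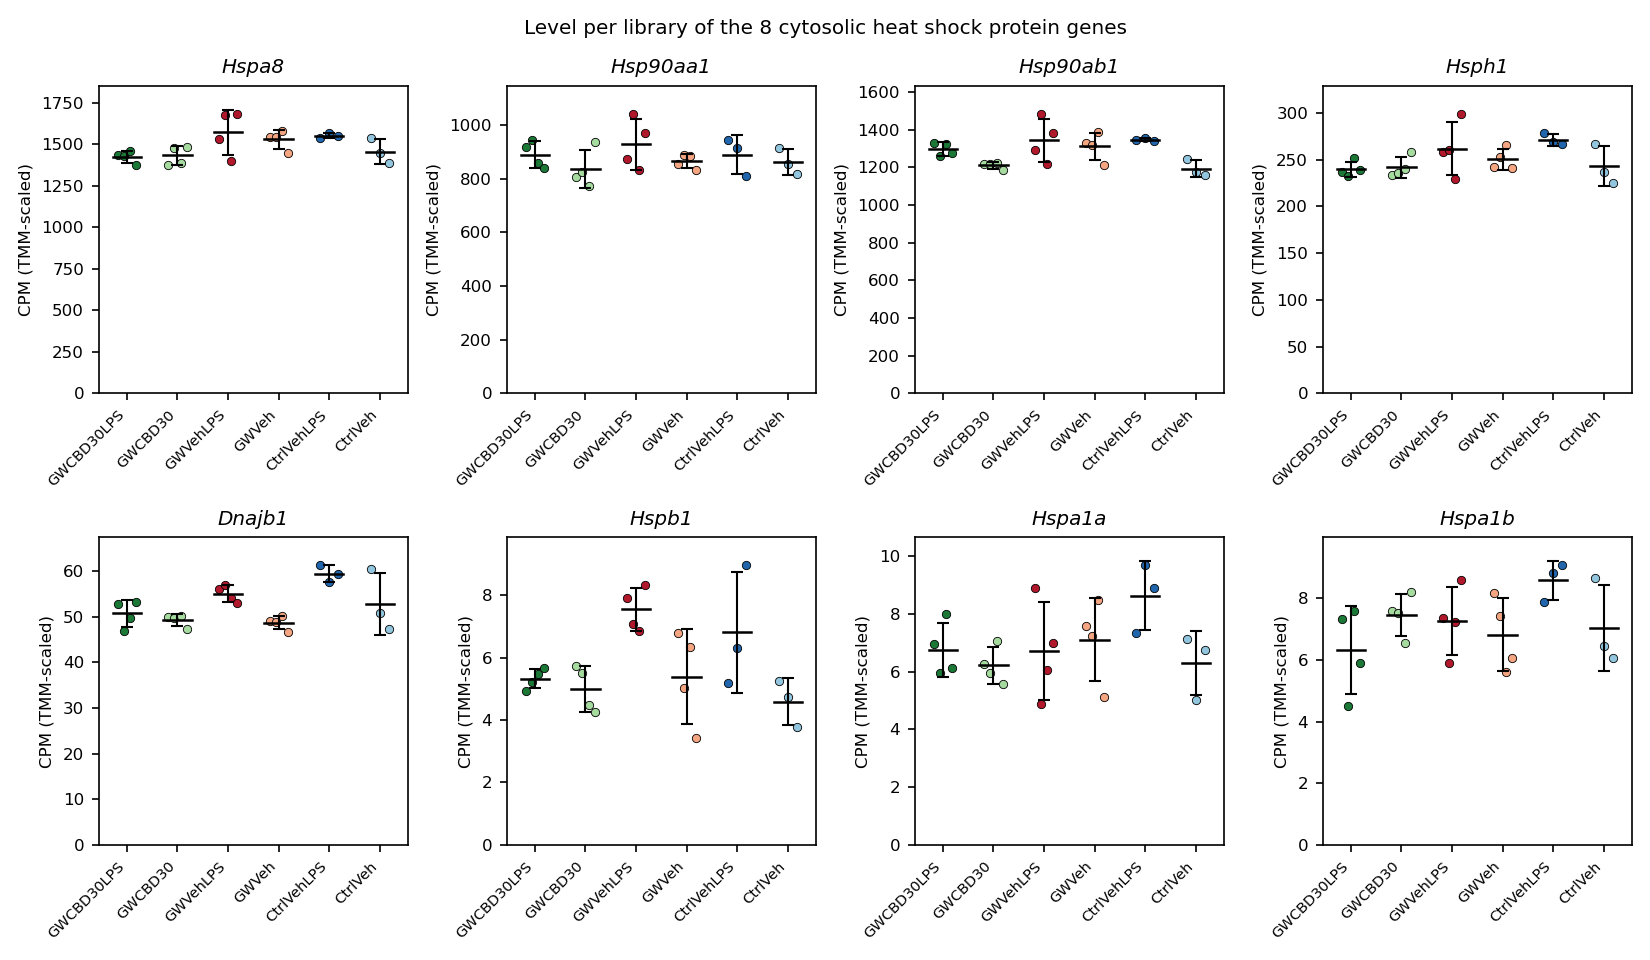
Levels of the 8 cytosolic heat shock genes in CPM (TMM-scaled, linear axes from 0) in each library, by group; points are libraries, long bars group means and whiskers 1 SD (n = 4, 4, 4, 4, 3 and 3 from left to right). Hspa8 keeps to 1377 to 1684 CPM over all 22 libraries, and Hspb1 stands at 6.85 to 8.32 CPM in GWVehLPS and 4.94 to 5.67 CPM in GWCBD30LPS.

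ER and cytosolic chaperones are set side by side by their counts and medians alone, since the difference between the classes was not tested. With LPS, ER folding genes had 5, 4 and 0 of 15 called in unexposed, exposed vehicle and exposed CBD mice, and cytosolic genes 0, 0 and 0 of 8. Of all genes tested, 0.494%, 0.939% and 0.00499% were called in these comparisons. The mean log2 CPM of the 15 ER folding genes was 6.28 to 6.36 in CtrlVehLPS and 6.00 to 6.13 in CtrlVeh, 6.25 to 6.41 in GWVehLPS and 6.10 to 6.23 in GWVeh, and 6.05 to 6.18 in GWCBD30LPS and 6.06 to 6.14 in GWCBD30. For the 8 cytosolic genes it was 6.65 to 6.77 in CtrlVehLPS and 6.38 to 6.63 in CtrlVeh, 6.54 to 6.76 in GWVehLPS and 6.34 to 6.63 in GWVeh, and 6.41 to 6.58 in GWCBD30LPS and 6.45 to 6.50 in GWCBD30. In unexposed mice both classes were thus higher in every LPS library than in every PBS library, and in exposed vehicle mice the ER class was and the cytosolic class overlapped. The difference of the 2 means (ER minus cytosolic) overlapped between LPS and PBS in all 3 arms, at -0.43 to -0.37 against -0.50 to -0.37 in unexposed mice, -0.35 to -0.25 against -0.45 to -0.24 in exposed vehicle mice and -0.43 to -0.28 against -0.44 to -0.34 in exposed CBD mice.

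**Figure D4:**
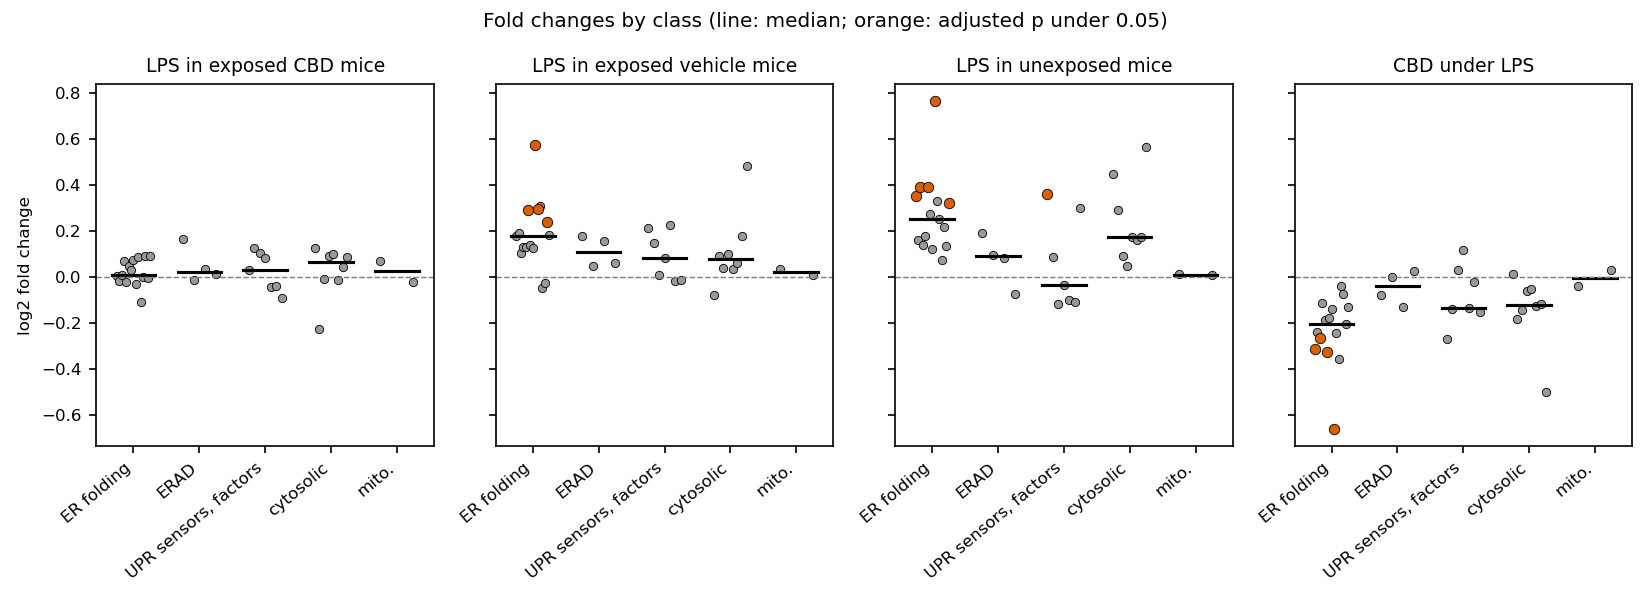
Log2 fold changes of the 36 members by class in 4 comparisons; each point is a gene, the line is the class median and orange marks an adjusted p under 0.05. ER folding genes have a median of 0.25 with LPS in unexposed mice and -0.20 for CBD against vehicle under LPS.

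These calls rest on few libraries, and no call of either vehicle arm was kept in each of the alternative settings (0 of 6 in 14 settings in unexposed mice, and 0 of 4 in 16 in exposed vehicle mice). In unexposed mice 6 members were called without CtrlVehLPS replicate 1, 4 without CtrlVeh replicate 1, 2 without CtrlVehLPS replicate 2 or 3, 1 without CtrlVeh replicate 3 and 0 without CtrlVeh replicate 2, where the adjusted p of these 6 was 0.0528 to 0.243. In exposed vehicle mice the count was 3 without GWVehLPS replicate 3, 2 without GWVehLPS replicate 2, 1 without GWVeh replicate 1 or 3, and 0 when GWVeh replicate 2 or 4 was left out, or GWVehLPS replicate 1 or 4. Without GWVeh replicate 1, the library high in red blood cell markers, 1.02% of all genes were called. Pdia4 then stayed called (0.31, adjusted p = 0.0445), and Sdf2l1, Manf and Dnajc3 had 0.58, 0.30 and 0.22 (adjusted p = 0.0744, 0.0654 and 0.113).

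Without CtrlVehLPS replicate 1, ER folding genes had 5 of 15 called in unexposed mice with LPS, 14 of 15 above 0 and a median of 0.31. Cytosolic genes had 0 of 8 called (3 at an unadjusted p under 0.05), 8 of 8 above 0 and a median of 0.16. Of all genes tested, 0.301% were called in that setting. The medians were 0.16 for degradation genes, 0.0069 for sensors and factors and -0.04 for mitochondrial genes. Members apart above numbered 23 of 36, 14 of them ER folding genes and 5 cytosolic, against 16.3% of all genes, with 1 below, Atf4, against 15.5%. Hspb1 then had 0.74 ± 0.22 (adjusted p = 0.147) with no overlap of its groups, Hspa1a 0.56 (adjusted p = 0.286) and Hspa1b 0.35 (adjusted p = 0.499), both also apart. In the same setting Manf had 0.31 (adjusted p = 0.189), Dnajc3 0.20 (adjusted p = 0.282), Creld2 0.35 (adjusted p = 0.368), Hsp90b1 0.17 (adjusted p = 0.372), Pdia6 0.31 (adjusted p = 0.117) and Canx 0.12 (adjusted p = 0.498). Herpud1 had 0.22 (adjusted p = 0.240), Sel1l 0.16, Syvn1 0.17, Edem1 -0.02 and Atf4 -0.12 (adjusted p = 0.629). Dnajb9, Hspd1 and Hspe1 turned to -0.02, -0.03 and -0.06, and Ern1 to 0.0069, with no call. Of the abundant cytosolic genes, Hspa8 had 0.10, Hsp90aa1 0.0006 and Hsp90ab1 0.17, with Hsph1 at 0.14 and Dnajb1 at 0.15, and no call.

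Without GWVeh replicate 1, 12 members were apart above with LPS in exposed vehicle mice, against 5.62% of all genes, and the ER folding median was 0.15 and the cytosolic median 0.07. For exposure without LPS 0 members were called by edgeR (5 at an unadjusted p under 0.05) and 5 were apart above, against 6.68% of all genes. For CBD without LPS 0 were called (3 unadjusted), and Hspa5 and Dnajb11 were apart below, against 2.61% of all genes.

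Averaged over the 3 arms, on the same libraries, LPS raised 11 of 36 members and lowered none, where 3.52% of all genes were called, 2.49% higher and 1.03% lower. A call of the average does not mean a rise in each arm. In the CBD arm no member was called, and the values of Sdf2l1, Pdia4, Hspa5, Calr and Xbp1 given above were near 0, unlike that of Herpud1. Of the ER folding genes, 8 of 15 were above 0 in all 3 arms. They were 8 of 15 ER folding genes, 1 of 4 degradation genes, 1 of 7 sensors and factors, 1 of 8 cytosolic genes and 0 of 2 mitochondrial genes. The largest were Sdf2l1 (0.44 ± 0.09, adjusted p = 0.00316), Hspb1 (0.38 ± 0.11, adjusted p = 0.0452), Pdia4 (0.24 ± 0.04, adjusted p = 0.000752) and Manf (0.24 ± 0.05, adjusted p = 0.00157). Xbp1 (0.20 ± 0.04, adjusted p = 0.00212), Hyou1 (0.20 ± 0.04, adjusted p = 0.00113), Herpud1 (0.18 ± 0.04, adjusted p = 0.00192), Hspa5 (0.18 ± 0.04, adjusted p = 0.0146) and Calr (0.17 ± 0.04, adjusted p = 0.00484) followed. Pdia6 (0.15 ± 0.04, adjusted p = 0.0446) and Canx (0.11 ± 0.03, adjusted p = 0.0485) were called by a small margin. Sdf2l1, Pdia4, Manf, Xbp1, Hyou1, Herpud1, Hspa5 and Calr kept their call in each of 30 alternative settings, 22 of which leave out 1 library. Hspb1, Pdia6 and Canx lost theirs in 14, 14 and 19 of the 30, among them leaving out CtrlVeh replicate 2 (adjusted p = 0.0756, 0.0920 and 0.0759). Without CtrlVehLPS replicate 1, Hspb1 and Pdia6 stayed called and Canx did not (adjusted p = 0.0656).

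Canx and Pdia6 had their groups apart in part of the arms. The Canx levels were 312, 311 and 290.2 CPM in CtrlVehLPS and 283, 282 and 264 CPM in CtrlVeh, 304, 334, 298 and 308 CPM in GWVehLPS and 289.6, 284, 282 and 283 CPM in GWVeh, and 274 to 297 CPM in GWCBD30LPS and 262 to 298 CPM in GWCBD30. Those of Pdia6 were 95.3, 105 and 102 CPM in CtrlVehLPS and 89.8, 82.1 and 77.8 CPM in CtrlVeh, 109.5, 89.3, 91.95 and 107 CPM in GWVehLPS and 92, 88.3, 97.3 and 83.1 CPM in GWVeh, and 84.8 to 90.04 CPM in GWCBD30LPS and 78.7 to 91.9 CPM in GWCBD30. LPS and PBS libraries did not overlap in either vehicle arm for Canx, and in unexposed mice alone for Pdia6.

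Genes of the same pathways outside the 36 were mostly not called. Averaged over the arms, 0 of 25 further ER folding and glycosylation genes, 0 of 17 translocation genes and 0 of 18 further degradation genes passed by edgeR. Of the other lists, 1 of 20 targets of PERK and ATF4, 1 of 42 further heat shock genes (mostly cytosolic) and 0 of 11 further mitochondrial proteostasis genes passed. Of all genes tested, 3.52% were called in this comparison. The numbers of the 6 lists at an unadjusted p under 0.05 were 2, 2, 1, 4, 5 and 2. The 2 that rose were Hspa2, a testis-enriched HSP70 (0.25 ± 0.06, adjusted p = 0.00946), and Atf5, a stress-induced transcription factor (0.25 ± 0.07, adjusted p = 0.0325). The next smallest p among ER folding genes was that of Ppib, an ER prolyl isomerase, at -0.12 (adjusted p = 0.0782), followed by Prkcsh at 0.10 (adjusted p = 0.216) and Dad1 at 0.10 (adjusted p = 0.292). For translocation the smallest were Sec62 (0.12, adjusted p = 0.104), Sec11c (-0.13, adjusted p = 0.124) and Sec61b (0.14, adjusted p = 0.291), and for degradation Sel1l3 (-0.11, adjusted p = 0.236), Os9 (0.08, adjusted p = 0.284) and Ufd1 (-0.05, adjusted p = 0.460). Vldlr (-0.13, adjusted p = 0.0537) and Psat1 (0.11, adjusted p = 0.132) came next to Atf5, and Hspa14 (-0.13, adjusted p = 0.0914) and Fkbp4 (0.11, adjusted p = 0.163) next to Hspa2. Mitochondrial genes were led by Grpel2 (-0.12, adjusted p = 0.182), Timm44 (-0.10, adjusted p = 0.224) and Hscb (-0.18, adjusted p = 0.296). In the other 9 comparisons none of these 133 genes was called by edgeR.

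**Figure D5:**
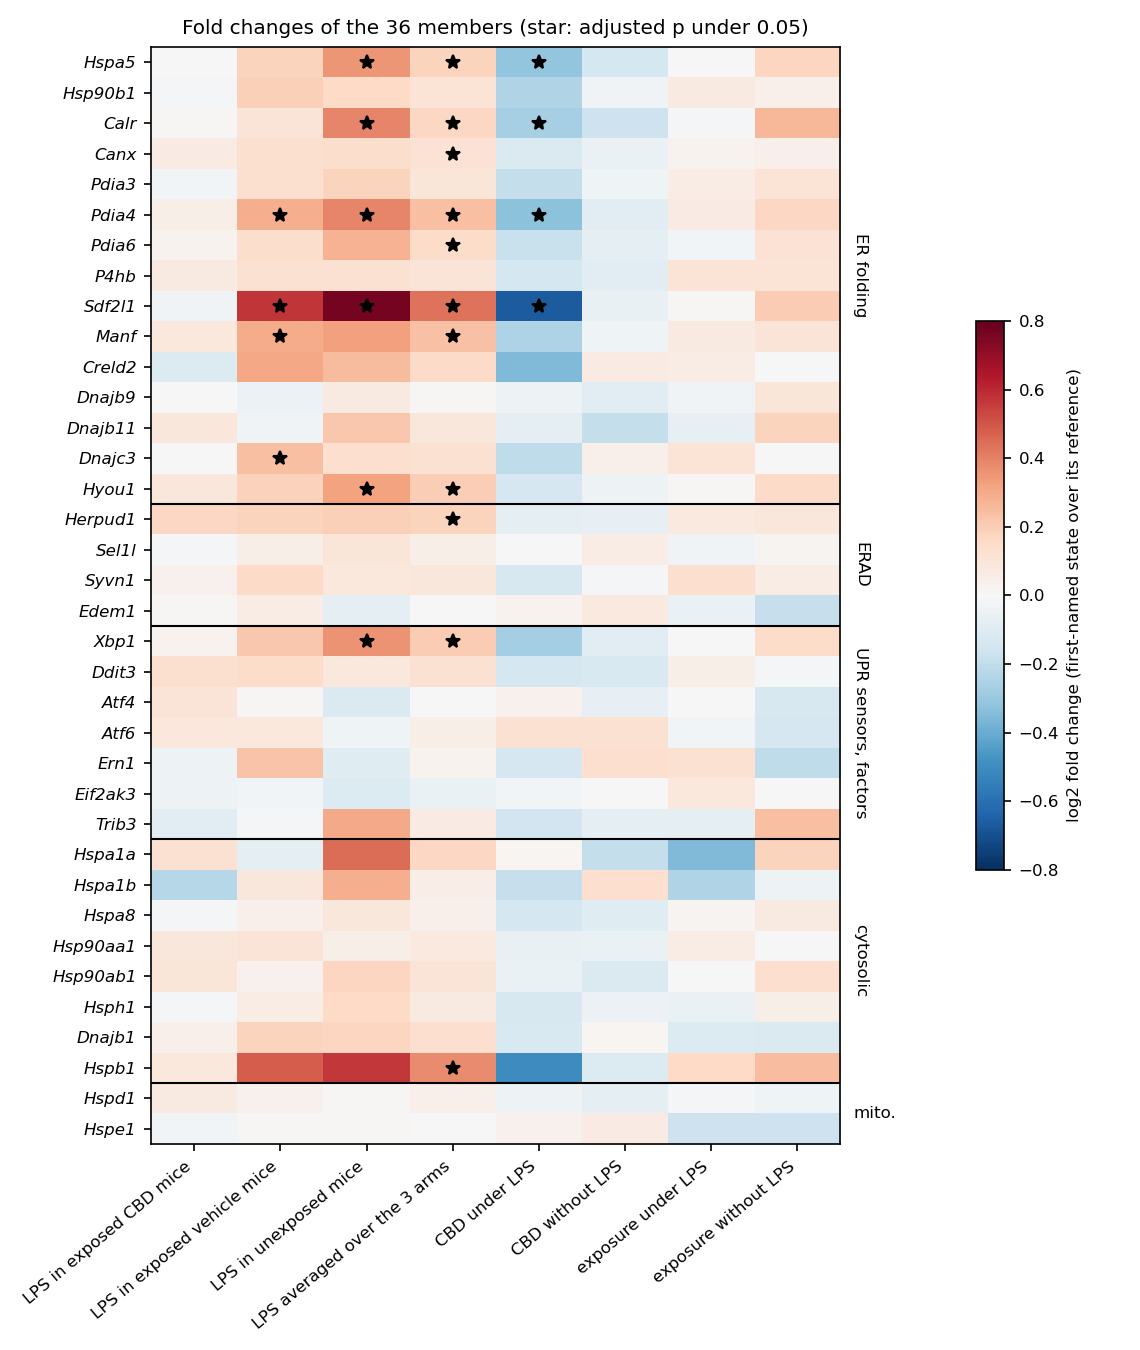
Log2 fold changes of the 36 members (rows, by class) in 8 comparisons (columns), with stars at an adjusted p under 0.05 by edgeR. Stars stand on 6 members with LPS in unexposed mice, on 4 in exposed vehicle mice, on none in exposed CBD mice and, with the opposite sign, on 4 for CBD under LPS.

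CBD under LPS, GWCBD30LPS against GWVehLPS, lowered 4 of 36 members, all ER folding genes, and raised none, where 0.225% of all genes were called lower and 0.015% higher. Sdf2l1 fell by 0.66 on the log2 scale (SE 0.14, adjusted p = 0.0343), Pdia4 by 0.33 (SE 0.07, adjusted p = 0.0339), Hspa5 by 0.32 (SE 0.07, adjusted p = 0.0409) and Calr by 0.26 (SE 0.06, adjusted p = 0.0395). All 15 ER folding genes had a value under 0 (median -0.20, 13 at an unadjusted p under 0.05), and the median of all genes was 0.0004. GWVehLPS also enters the LPS comparison in exposed vehicle mice, so the 2 sets of values are not independent and are given side by side: Sdf2l1 had -0.66 for CBD under LPS and 0.57 for LPS on vehicle, Pdia4 -0.33 and 0.29, Hspa5 -0.32 and 0.18, and Calr -0.26 and 0.11.

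The libraries behind the CBD values were given above. For Sdf2l1 the GWCBD30LPS libraries reached at most 7.83 CPM and the GWVehLPS libraries at least 9.25 CPM. For Pdia4 the highest GWCBD30LPS library was 31.0 CPM and the lowest GWVehLPS library 35.9 CPM. Hspa5 and Calr came closer, with 215.5 against 217.5 CPM and 260.2 against 272 CPM. In all, 9 members had every GWCBD30LPS library below every GWVehLPS library, against 2.5% of all genes: Hspa5, Hsp90b1, Calr, Canx, Pdia4, Sdf2l1, Dnajc3, Xbp1 and Hspb1. None had every library above (1.78% of all genes).

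Next to the 4 called were Xbp1 (-0.27 ± 0.07, adjusted p = 0.0756) and Hsp90b1 (-0.24 ± 0.06, adjusted p = 0.0918), then Dnajc3 (-0.20 ± 0.06, adjusted p = 0.234), Manf (-0.24 ± 0.07, adjusted p = 0.248) and Creld2 (-0.36 ± 0.12, adjusted p = 0.372), with no call. Hsp90b1 had 179.8, 193, 173 and 176 CPM in GWCBD30LPS and 221, 214, 197 and 222 CPM in GWVehLPS. The groups did not overlap, and the gene shares 415 exonic bases with 1810014B01Rik on the other strand. On the same strand it shares 133 bases with Gm25745 and 84 bases with Gm15344. Degradation genes had 0 of 4 called and a median of -0.04, sensors and factors 0 of 7 and -0.14, cytosolic genes 0 of 8 and -0.12, and mitochondrial genes 0 of 2 and -0.0045 (edgeR, with 0, 1, 2 and 0 at an unadjusted p under 0.05). Among cytosolic genes Hspb1 (-0.50 ± 0.18, adjusted p = 0.394) and Hspa8 (-0.14 ± 0.06, adjusted p = 0.507) were at an unadjusted p under 0.05. The call count was 6 without GWVehLPS replicate 3, 3 without GWVehLPS replicate 2 and 1 without GWCBD30LPS replicate 3. It was 0 without GWVehLPS replicate 1 or 4 or without GWCBD30LPS replicate 1, 2 or 4. The share of all genes called in these settings is not given here. Of the 4 calls, 0 were kept in each of 16 alternative settings.

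Whether the LPS response itself differed between CBD and vehicle was tested as an interaction, and no member passed (0 of 36 by edgeR, 5 at an unadjusted p under 0.05, 0 by DESeq2, with 0.0449% of all genes called). The smallest p values were those of Sdf2l1 (-0.60 ± 0.21, adjusted p = 0.713, 95% interval -1.04 to -0.16), Dnajc3 (-0.24 ± 0.09, adjusted p = 0.732) and Hsp90b1 (-0.21 ± 0.08, adjusted p = 0.768). For Hspa5 and Calr the interaction was -0.17 (adjusted p = 0.914) and -0.10 (adjusted p = 0.936), with 95% intervals of -0.39 to 0.04 and -0.28 to 0.08. An LPS effect called in vehicle mice and not in CBD mice is therefore not shown to differ between them for any member.

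Without LPS, CBD gave no call: GWCBD30 against GWVeh had 0 of 36 by edgeR, 3 at an unadjusted p under 0.05 and 0 by DESeq2, in a comparison that called 0 of all genes. The smallest p values were those of Calr (-0.17 ± 0.06, adjusted p = 0.752), Dnajb11 (-0.19 ± 0.07, adjusted p = 0.752) and Hsp90ab1 (-0.12 ± 0.06, adjusted p = 0.752). Dnajb11, an ER co-chaperone of BiP, had 36.6, 40.4, 39.2 and 37.4 CPM in GWCBD30 and 42.97, 44.5, 45.5 and 42.3 CPM in GWVeh, the 1 member whose libraries did not overlap in that comparison (1.7% of all genes were lower without overlap, and 1.84% higher). Of the ER folding genes 13 of 15 had a value under 0, with a median of -0.06.

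Exposure alone gave no call either. GWVeh against CtrlVeh had 0 of 36 by edgeR and 8 at an unadjusted p under 0.05, and 0 of all genes were called. DESeq2 called Calr (0.26, adjusted p = 0.0319), for which edgeR gave 0.27 ± 0.06, adjusted p = 0.354. Calr had 298, 288, 285 and 256 CPM in GWVeh and 243, 226 and 234 CPM in CtrlVeh, with no overlap. Dnajb11 (0.18 ± 0.08, adjusted p = 0.516) and Hyou1 (0.15 ± 0.07, adjusted p = 0.522) came next. With Herpud1 these were the 4 members whose GWVeh libraries all lay above the CtrlVeh libraries, against 4.8% of all genes, and none lay below (4.59% of all genes). ER folding genes had 14 of 15 above 0 with a median of 0.11, against 0.0010 over all genes, and cytosolic genes 6 of 8 with a median of 0.06. The same CtrlVeh libraries are the baseline of LPS in unexposed mice, and 3 libraries set that level. The GWVeh libraries likewise serve exposure, CBD without LPS and LPS in exposed vehicle mice.

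Under LPS, exposure gave 0 of 36 by edgeR, 0 at an unadjusted p under 0.05 and 0 by DESeq2, with 0.00499% of all genes called. The values were -0.35 ± 0.18, adjusted p = 0.66 for Hspa1a, -0.17 ± 0.09, adjusted p = 0.699 for Hspe1 and 0.13 ± 0.08, adjusted p = 0.733 for Syvn1, and without CtrlVehLPS replicate 1 they were -0.47, -0.09 and 0.05 with an adjusted p of 0.999 for each. In that setting the ER folding median was 0.02 and the cytosolic median -0.02, and Hspa1a, Hspa1b and Dnajb1 had every GWVehLPS library below every CtrlVehLPS library (5.5% of all genes did). Hspa1a has a near-identical copy and shares 564 exonic bases with Gm20481 on the other strand. Eif2ak3 was the 1 member with every GWVehLPS library above every CtrlVehLPS library (2.84% of all genes were), at 30.9 to 32.7 CPM in GWVehLPS and 29.2 to 30.7 CPM in CtrlVehLPS, and Dnajb1 the 1 member below (2.57% of all genes), at 52.99 to 57.1 CPM in GWVehLPS and 57.7 to 61.3 CPM in CtrlVehLPS. The interaction of exposure and LPS had 0 of 36 by edgeR, 4 at an unadjusted p under 0.05 and 0 by DESeq2, with 0 of all genes called, led by Calr (-0.28 ± 0.09, adjusted p = 0.399), Dnajb11 (-0.25 ± 0.11, adjusted p = 0.544) and Ern1 (0.33 ± 0.15, adjusted p = 0.574), for which the values without CtrlVehLPS replicate 1 were -0.29, -0.22 and 0.22 (adjusted p = 0.728, 0.760 and 0.814).

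Markers of several cell types were higher with LPS. The 11 microglial markers summed to 435.6 to 463.1 CPM in CtrlVehLPS and 264.8 to 287.3 CPM in CtrlVeh, to 421.6 to 526.8 CPM in GWVehLPS and 264.4 to 303.7 CPM in GWVeh, and to 324.1 to 377.5 CPM in GWCBD30LPS and 271.3 to 322.7 CPM in GWCBD30. Of these 11, 8 were called higher with LPS in unexposed mice, 9 in exposed vehicle mice and 0 in exposed CBD mice (edgeR), and 5 were called lower for CBD under LPS. The 9 endothelial markers summed to 119.8 to 136.8 CPM in CtrlVehLPS and 112.0 to 130.5 CPM in CtrlVeh, 145.1 to 162.4 CPM in GWVehLPS and 107.3 to 124.6 CPM in GWVeh, and 115.0 to 123.1 CPM in GWCBD30LPS and 107.5 to 127.4 CPM in GWCBD30, with 0, 3 and 0 called higher in the 3 arms and 3 called lower for CBD under LPS. The 7 astrocyte markers were apart in all 3 arms, at 4629 to 4804 CPM in CtrlVehLPS and 4360 to 4517 CPM in CtrlVeh, 4631 to 5228 CPM in GWVehLPS and 4197 to 4557 CPM in GWVeh, and 4617 to 4917 CPM in GWCBD30LPS and 4052 to 4293 CPM in GWCBD30, with 0, 1 and 0 of 7 called higher. The 7 oligodendrocyte markers were apart in the CBD arm alone, at 6071 to 6956 CPM in GWCBD30LPS and 4911 to 5663 CPM in GWCBD30, with 0 of 7 called by edgeR in any single arm (0, 1 and 3 at an unadjusted p under 0.05). No marker of these lists was at 0 throughout a group, and the part of these cells in the chaperone values was not tested. With olfactory bulb and cerebellar marker scores as covariates, 5 members were called with LPS in unexposed mice, 5 in exposed vehicle mice and 6 for CBD under LPS. The share of all genes called in this setting is not given here. Pdia4 lost its call in unexposed mice. The bulb score was 2.97 to 3.91 in CtrlVehLPS and 1.48 to 1.59 in CtrlVeh, so bulb content and LPS can hardly be told apart in that arm.

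Exons on the other strand also overlap those of Eif2ak3 (485 bases, Gm43292), Syvn1 (91 bases, Mrpl49), Ddit3 (68 bases, Mars) and Pdia6 (50 bases, Atp6v1c2), and snoRNA genes lie within Hspa8 exons, so values of these members carry that uncertainty.

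In all, 12 members were called in at least 1 of the 10 comparisons and 24 in none. The 24 were Hsp90b1, Pdia3, P4hb, Creld2, Dnajb9 and Dnajb11 of the ER folding class, Sel1l, Syvn1 and Edem1 of the degradation class, Ddit3, Atf4, Atf6, Ern1, Eif2ak3 and Trib3 of the sensors and factors, Hspa1a, Hspa1b, Hspa8, Hsp90aa1, Hsp90ab1, Hsph1 and Dnajb1 of the cytosolic class, and Hspd1 and Hspe1. Their log2 fold changes in the 7 comparisons of 2 groups were at most 0.45 in size, as for Hspa1a with LPS in unexposed mice.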

How the data were processed

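Brain RNA (integrity number 8.5 or higher) was made into stranded poly(A) libraries and read as 150 bp pairs, per the labels' protocols. The build was GRCm38/mm10, per the submitters' processing notes. The aligner, the program that counted reads, its setting for strand and the annotation were not given in the sources used here. The table as deposited by the authors holds raw read counts per gene, in whole numbers. The members, the further pathway lists and the tests were chosen with earlier results of these data known. Genes passing filterByExpr (20026 of 56748) were TMM-scaled and fitted with edgeR 4.0.16 in R 4.3.3 (quasi-likelihood, robust), as 6 group means over 22 libraries with 16 residual degrees of freedom, and 10 contrasts were tested two-sided with Benjamini-Hochberg adjustment over all genes tested. The common biological coefficient of variation was 0.1028. SEs were taken as the absolute log2 fold change over the root of F, and 95% intervals from the t distribution. Class scores are means of log2 CPM with a prior count of 2. The floor of 3 counts lay between 0.0975 and 0.176 CPM by library, below every member's values. Such limits cover counting error only. Libraries of a group differed by more than sampling noise (chi-square per gene 3.86 to 20.4), so none was taken as deposited more than once. Exon lengths came from GENCODE M21. Named members were those past the threshold in a comparison, or the 3 with the smallest p where fewer passed, along with the class descriptions. The code was tested on simulated data. The alternatives were RLE scaling, no filter, a filter at 1 CPM in 3 libraries, DESeq2 1.42.0, fitting only the libraries compared, blocking on replicate number, covariates for olfactory bulb and cerebellar markers, a threshold of 0.1 and omission of each library in turn.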

Additional observations from a re-analysis of the deposited data

Results flagged for a closer look

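In groups of 4 libraries, 7 of 144 combinations of member and group held 1 library far from the other 3 by Dixon's criterion, which chance gives in about 1 in 20. GWVeh replicate 4 was low for Pdia3 (138.5 CPM, the others 158 to 162 CPM) and Pdia4 (27.0 CPM, the others 31.7 to 32.6 CPM) and high for Edem1 (29.8 CPM, the others 25.2 to 25.9 CPM). GWCBD30 replicate 4 was low for Hsp90ab1 (1184 CPM, the others 1217 to 1220 CPM) and Dnajb1 (47.3 CPM, the others 49.8 to 50.1 CPM). GWCBD30LPS replicate 2 was high for Dnajc3 (71.2 CPM, the others 66.8 to 66.9 CPM), and GWVehLPS replicate 3 was high for Ern1 (26.0 CPM, the others 19.1 to 19.96 CPM). No member passed either interaction test in edgeR or DESeq2.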

How the results depend on the processing

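Counts of called members stayed within 1.5 times the value reported under RLE scaling, either filter, the covariates, an adjusted p of 0.1 and the replicate block in each of the 10 comparisons. The members called could still change. Hspa5 for CBD under LPS lost its call with the filter at 1 CPM and with the block. Dnajc3 in exposed vehicle mice lost it with no filter and with the block, and Pdia4 in unexposed mice with the covariates. Fitting only the libraries compared gave 1 member for LPS in unexposed mice (6 with all groups fitted) and 1 for LPS in exposed vehicle mice (4). DESeq2 gave 1 member for exposure without LPS, where edgeR gave 0, and the cause was not tested in either case. Leaving out 1 library gave 0 to 6 members for LPS in unexposed mice, 0 to 3 for LPS in exposed vehicle mice, 0 to 6 for CBD under LPS, 8 to 13 for LPS averaged over the arms and 0 in the other 6 comparisons. In the groups of 3 this leaves 2 libraries. For most of these settings the share of all genes called is not set beside the count, so the counts describe the members only. Syvn1 for exposure under LPS turned to -0.0044 with the covariates, and the cause was not tested. Replicate numbers did not pair the mice: same-numbered libraries had correlations of deviations from -0.06 to 0.13, with 1 of 25 over 0.1. A block for the replicate number gave 6, 3, 0 and 10 members for LPS in unexposed, exposed vehicle and exposed CBD mice and averaged over the arms, 3 for CBD under LPS and 0 in the other comparisons. Trib3 had 326 counts in all and SEs of 0.42 to 0.50 in single arms, so changes of that size were not detectable for it. Hspa1a, Hspa1b and Hspb1 had SEs of 0.16 to 0.21 and biological coefficients of variation of 0.152, 0.140 and 0.158, above the 0.1028 common to all genes.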

Other observations

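The cold-inducible RNA-binding protein genes Rbm3 and Cirbp, which respond to lowered temperature and so to the opposite of heat shock, summed to 91.2 to 96.7 CPM in CtrlVehLPS and 113 to 134 CPM in CtrlVeh. In exposed vehicle mice the sum was 82.7 to 110.3 CPM in GWVehLPS and 105 to 139 CPM in GWVeh, with overlap. In exposed CBD mice it was 117 to 132 CPM in GWCBD30LPS and 108 to 127 CPM in GWCBD30, with overlap. These sums were not tested, and body temperature is not given in the sources used here.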
